A study of Mactra quadrangularis with 9 samples.

Results

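Superoxide dismutases and catalase were followed in gill of the surf clam *Mactra quadrangularis*, called *Mactra veneriformis* in the series text, at 3 levels of dissolved oxygen. The genes were those whose description in the deposited table held the words superoxide dismutase or catalase, with a mean of at least 1 FPKM (sequenced fragments of a gene scaled by its length and by the size of the library) over the 9 libraries. The words were in the descriptions of 5 of 24722 genes, and 4 of these passed the minimum. They were the extracellular superoxide dismutase [Cu-Zn] Mve10G006350, the extracellular copper/zinc superoxide dismutase Mve05G004020, the manganese superoxide dismutase Mve05G005570 and the catalase Mve05G008150. The deposited table gives no enzyme code to Mve10G006350, which is named by its description alone. The others carry the code of a superoxide dismutase or a catalase. The fifth, the copper chaperone for superoxide dismutase-like gene Mve02G000210, had a mean of 0.182 FPKM and was not tested, while the lowest of the 4 that passed, Mve05G004020, had 13.1 FPKM. Genes that share a description can share reads, and no source used here says how reads matching several places were counted.

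Clams were kept for 24 h at 7.5 mg/L oxygen (the control), at 4 mg/L or at 2 mg/L, in unfed seawater at 20 °C and a salinity of 27, and 3 gill libraries were made per group. Hypoxia was set by bubbling nitrogen through the water, and the control water was aerated. No genotype, strain, age or sex is given in the labels. Whether the libraries within a group are different clams is not said in the labels, so a p-value here speaks only of how far these libraries spread, and that spread may be technical. The 9 libraries held between 26994566 and 32246147 counts. Of 78 genes on a list of markers of ciliated gill epithelium, 74 to 76 had a mean of at least 1 FPKM in each group, and their summed level was 2937 to 3001 FPKM in the control, 2563 to 2667 FPKM at 4 mg/L and 2387 to 2440 FPKM at 2 mg/L. Of 75 tested, 13 rose and 41 fell at 4 against 7.5 mg/L, where 35.4% of all genes tested rose and 34.5% fell. At 2 against 7.5 mg/L 20 rose and 35 fell, where 31.5% and 32% did. At 2 against 4 mg/L, however, 28 rose and 14 fell (median log2 change 0.08), where 31.6% and 32.1% did.

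Superoxide dismutases turn superoxide, a by-product of respiration and of oxidase enzymes, into hydrogen peroxide and oxygen. Catalase, an iron-heme enzyme that in animals sits mostly in peroxisomes, turns hydrogen peroxide into water and oxygen. Animals usually carry a manganese enzyme in the mitochondrial matrix, a copper-zinc enzyme in the cytosol and copper-zinc enzymes that are secreted. In bivalves the gill is the main surface for gas exchange, and a secreted copper-zinc dismutase is known from the hemolymph of oysters.

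In the control gill the 4 genes spanned very different levels. Mve10G006350 had 253 ± 10.6 FPKM (mean ± SD, n = 3), which placed it 300th of the 15397 genes tested. Catalase had 54.6 ± 2.26 FPKM and the manganese enzyme 23.5 ± 1.66 FPKM. Mve05G004020 was close to silent, at 0.0664 ± 0.0701 FPKM. The libraries of these 4 genes did not overlap at 7.5 mg/L, so this order held in each control library.

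**Figure D1:**
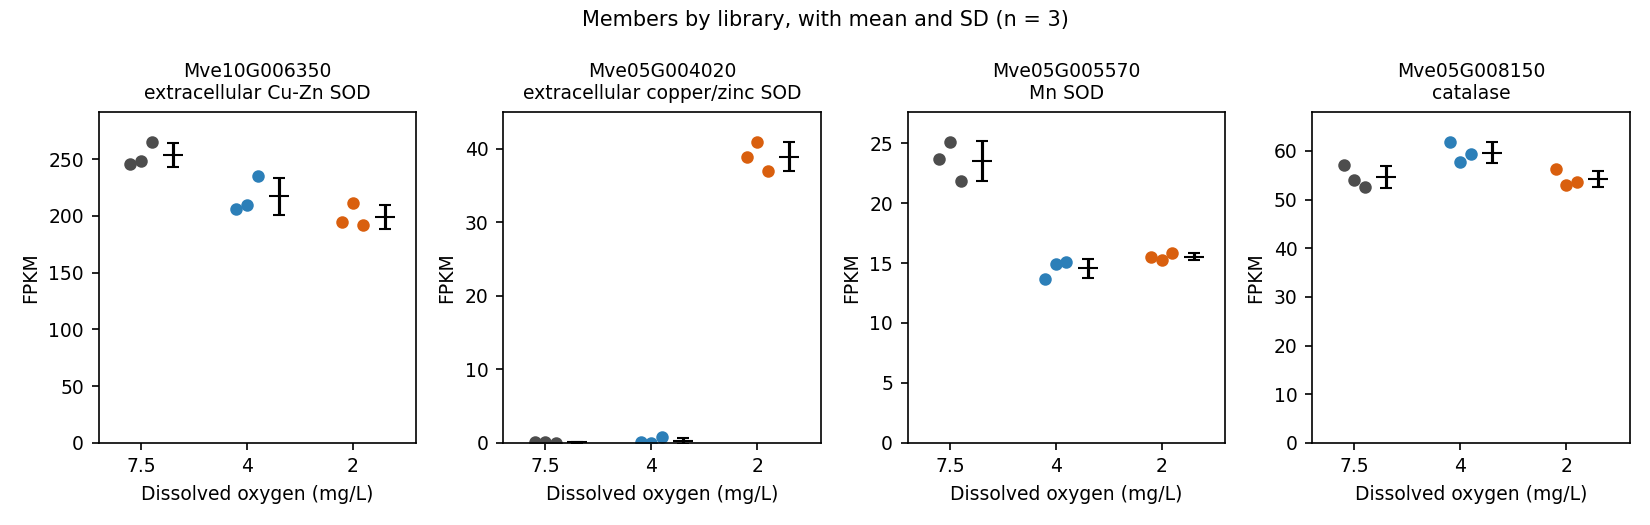
FPKM of the 4 genes in each library (points; vertical axis from 0) by dissolved oxygen in mg/L, with the group mean and SD of 3 libraries as a black mark. Mve05G004020 is near 0 at 7.5 and 4 mg/L and between 37.0 and 41.0 at 2 mg/L, while the manganese enzyme is lower in every hypoxic library than in any control library.

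The clearest change at 2 mg/L was in Mve05G004020, one of the genes described as extracellular copper/zinc superoxide dismutases. It went from a near-silent gene to 38.9 ± 2.01 FPKM, and from 15195th to 1562nd in level among the 15397 genes. The manganese enzyme fell at both levels of hypoxia. On the TMM scale (trimmed mean of M values, a scaling between libraries) the abundant Mve10G006350 and catalase moved by at most 1.14-fold in any comparison, but in mean FPKM Mve10G006350 went from 253 in the control to 217 at 4 mg/L and 199 at 2 mg/L.

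Mve05G004020 lies on chromosome 5 from 10528735 to 10540195, on the plus strand, in the coordinates of the deposited table, whose genome build no source used here names. It drew 8, 4 and 0 raw counts from the control, 10, 0 and 50 at 4 mg/L and, at 2 mg/L, 2557, 2686 and 2114. Its levels were 0.140, 0.0595 and 0 FPKM in the control, 0.147, 0 and 0.734 FPKM at 4 mg/L and 38.9, 41.0 and 37.0 FPKM at 2 mg/L. All 3 libraries at 2 mg/L stood far above the other 6, and the control and 4 mg/L libraries overlapped.

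Mve05G004020 met the minimum of 1 FPKM only through its 2 mg/L libraries. A gene this low at 7.5 and 4 mg/L could be among the 4 only by being high at 2 mg/L, so its differences from that group are given as a description, with no test. At 2 against 7.5 mg/L the fitted ratio was 686-fold (log2 change 9.42, edgeR). The control side of this ratio is 12 counts summed over 3 libraries, so its size depends on single counts, and the log2 change ran from 8.81 to 10.46 as each library was left out. At 2 against 4 mg/L the fitted ratio was 141-fold (log2 7.14), and without the third 4 mg/L library the log2 change was 9.14.

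Whether Mve05G004020 already rose at 4 mg/L could not be settled at this depth. The fit gave a log2 change of 2.28 ± 0.96 with an adjusted p of 0.0431 in edgeR's quasi-likelihood test with Benjamini-Hochberg adjustment. That call rested on the third 4 mg/L library, which held 50 of the 60 counts in its group. Without that library the log2 change was 0.30 with an adjusted p of 0.795, and DESeq2 gave an adjusted p of 0.211 with all libraries.

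The pattern of a gene under 1 FPKM at 7.5 and 4 mg/L and at 10 FPKM or more at 2 mg/L was shared with few others, 49 of 24722 genes including Mve05G004020. By the same limits 95 genes were high at 4 mg/L alone. In log2 change at 2 against 7.5 mg/L Mve05G004020 ranked 46th from the top of the genes tested. Over the 9 libraries the described genes whose profile lay closest to it were an electrogenic sodium bicarbonate cotransporter 1-like gene (Mve19G006690; root mean square difference 1.02 in centred log2 CPM), a solute carrier family 12 member 3-like gene (Mve10G001610; 1.03) and temptin (Mve01G008120; 1.10). At 2 mg/L these had 24.0 ± 2.03, 8.90 ± 0.306 and 24.1 ± 1.00 FPKM, and in the control 0.163, 0 and 0 FPKM. Solute carriers of these families move bicarbonate or chloride together with sodium, and temptin is known from the sea slug *Aplysia* as a water-borne attractant.

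One list of cell markers moved with Mve05G004020. The summed level of 33 muscle genes was 1265, 1258 and 1243 FPKM in the control, 1196, 1167 and 1212 FPKM at 4 mg/L and 3518, 3334 and 4053 FPKM at 2 mg/L. The 2 mg/L libraries were the high ones here too. Of 27 muscle genes tested at 2 against 7.5 mg/L, 15 rose and 6 fell, where 31.5% of all genes tested rose and 32% fell. In the control group 2 of the 33, the genes Mve08G006620 and Mve19G004790, had no count. At 2 mg/L also 2 had none, Mve08G006620 and Mve09G006830. The part of muscle tissue in the rise of Mve05G004020 was not tested. In whole gill a rise in the cells that make a message and a rise in message per cell cannot be told apart, and the same holds for falls. The lists of description words for 4 other sources moved otherwise. Hemocyte and plasma genes summed to 491 to 497 FPKM in the control, 1097 to 1145 at 4 mg/L and 416 to 439 at 2 mg/L, but of the 13 tested 4 rose and 7 fell at 4 against 7.5 mg/L (median log2 change -0.54), and 4 rose and 9 fell at 2 against 7.5 mg/L. Digestive gland genes summed to 1621 to 1647, 1663 to 1758 and 1263 to 1308 FPKM in the same order, and of 15 tested 9 rose and 3 fell at 4 mg/L and 3 rose and 9 fell at 2 mg/L against the control. Mantle and shell genes summed to 192 to 206, 113 to 127 and 131 to 148 FPKM, but of 13 tested 6 rose and 3 fell at 4 mg/L (median log2 change 0.17) and 5 rose and 4 fell at 2 mg/L (median 0.12) against the control. Genes on the gonad list summed to 1792 to 1844, 1124 to 1161 and 941 to 961 FPKM. Of 41 tested 14 rose and 19 fell at 4 mg/L and 6 rose and 23 fell at 2 mg/L. This list holds genes described as vitelline membrane outer layer protein 1, such as Mve15G009460 (mean 235 FPKM), while Vitellogenin-6 had 0.00315 FPKM. On the digestive gland list cathepsin L3 (Mve05G015750) alone had a mean of 1195 FPKM. How much gonad or digestive gland tissue was present was therefore not measured. Over all genes tested 35.4% rose and 34.5% fell at 4 against 7.5 mg/L.

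The manganese superoxide dismutase fell at both levels of hypoxia. Mve05G005570, whose description calls it partial, lies on chromosome 5 from 16132735 to 16141947 on the minus strand. It had 23.7, 25.1 and 21.8 FPKM in the control, 13.7, 14.9 and 15.1 FPKM at 4 mg/L and 15.5, 15.2 and 15.8 FPKM at 2 mg/L. Each hypoxic library was below each control library. The gene was 1.55-fold lower at 4 mg/L (log2 change -0.63 ± 0.08, adjusted p = 1.5e-06) and 1.32-fold lower at 2 mg/L (log2 -0.40 ± 0.08, adjusted p = 0.00023) in edgeR's test, and both calls held in each of the 20 other settings.

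Between 4 and 2 mg/L the manganese enzyme was 1.17-fold higher at 2 mg/L (log2 0.23 ± 0.08, adjusted p = 0.0172, edgeR). This call depended on how libraries were scaled. With total counts in place of TMM scaling the log2 change was 0.10 and the adjusted p 0.281, and it was also lost without the first 4 mg/L library (adjusted p = 0.0805) or the third 2 mg/L library (adjusted p = 0.0506). The 3 described genes closest to its profile were Annexin A7 (Mve01G006890; root mean square difference 0.057), a gene for the 70 kDa protein of the U1 splicing particle (Mve16G010260; 0.0599) and subunit B of the V-type proton ATPase (Mve13G002020; 0.0707).

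Mve10G006350, the most abundant of the 4 genes, was lower in hypoxia by a margin that moved with the scaling. It lies on chromosome 10 from 22907403 to 22919896 on the plus strand. It had 246, 249 and 265 FPKM in the control, 206, 210 and 235 FPKM at 4 mg/L and 195, 212 and 192 FPKM at 2 mg/L. On this scale the hypoxic libraries all lay below the control libraries. On the TMM scale its fall was 1.12-fold at 4 mg/L (log2 -0.16 ± 0.06, adjusted p = 0.0206), where the libraries overlapped, and 1.11-fold at 2 mg/L (log2 -0.15 ± 0.06, adjusted p = 0.0332, edgeR). With total counts the falls were larger, with log2 changes of -0.23 (adjusted p = 0.0012) and -0.35 (adjusted p = 2.87e-05). On the TMM scale both calls were lost when the third control library was left out, with adjusted p of 0.0982 and 0.141. They were also lost without the first or the second 4 mg/L library (0.107 and 0.0869) and without the first or the third 2 mg/L library (0.107 and 0.103) respectively. Between the 2 hypoxic groups the test did not pass, with a log2 difference of 0.01 (95% interval -0.11 to 0.13, adjusted p = 0.879, edgeR). The described genes nearest to its profile were NHP2-like protein 1 (Mve01G001000; 0.0414), a RAC-gamma kinase-like gene (Mve02G007940; 0.059) and ribosomal protein L13-like (Mve06G010530; 0.0613).

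Catalase, Mve05G008150, lies on chromosome 5 from 24520479 to 24538869 on the plus strand. It had 57.1, 54.0 and 52.6 FPKM in the control, 61.9, 57.7 and 59.3 FPKM at 4 mg/L and 56.2, 53.0 and 53.7 FPKM at 2 mg/L. The 4 mg/L libraries were the highest, with no overlap with the control, and the 2 mg/L libraries overlapped the control. At 4 against 7.5 mg/L catalase rose 1.14-fold (log2 0.19 ± 0.05, adjusted p = 0.00291, edgeR), and this held in each of the 20 other settings.

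At 2 mg/L the direction of catalase followed the scaling of the libraries. TMM scaling gave a log2 change of 0.19 ± 0.05 against the control (adjusted p = 0.0036, edgeR), and total counts gave -0.01 (adjusted p = 0.854). Total counts shifted the median of all genes tested by -0.20 in the same comparison, and by -0.07 at 4 against 7.5 mg/L and -0.13 at 2 against 4 mg/L. At 2 against 4 mg/L the log2 difference of catalase was -0.00 on the TMM scale (95% interval -0.11 to 0.10, adjusted p = 0.987, edgeR) and -0.13 with total counts (adjusted p = 0.0318). The described genes nearest to catalase in profile were the 54 kDa protein of the signal recognition particle (Mve02G005370; 0.0303), a long-chain fatty acid CoA ligase 1-like gene (Mve01G013230; 0.0433) and CHCHD7 (Mve03G006230; 0.0454).

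**Figure D2:**
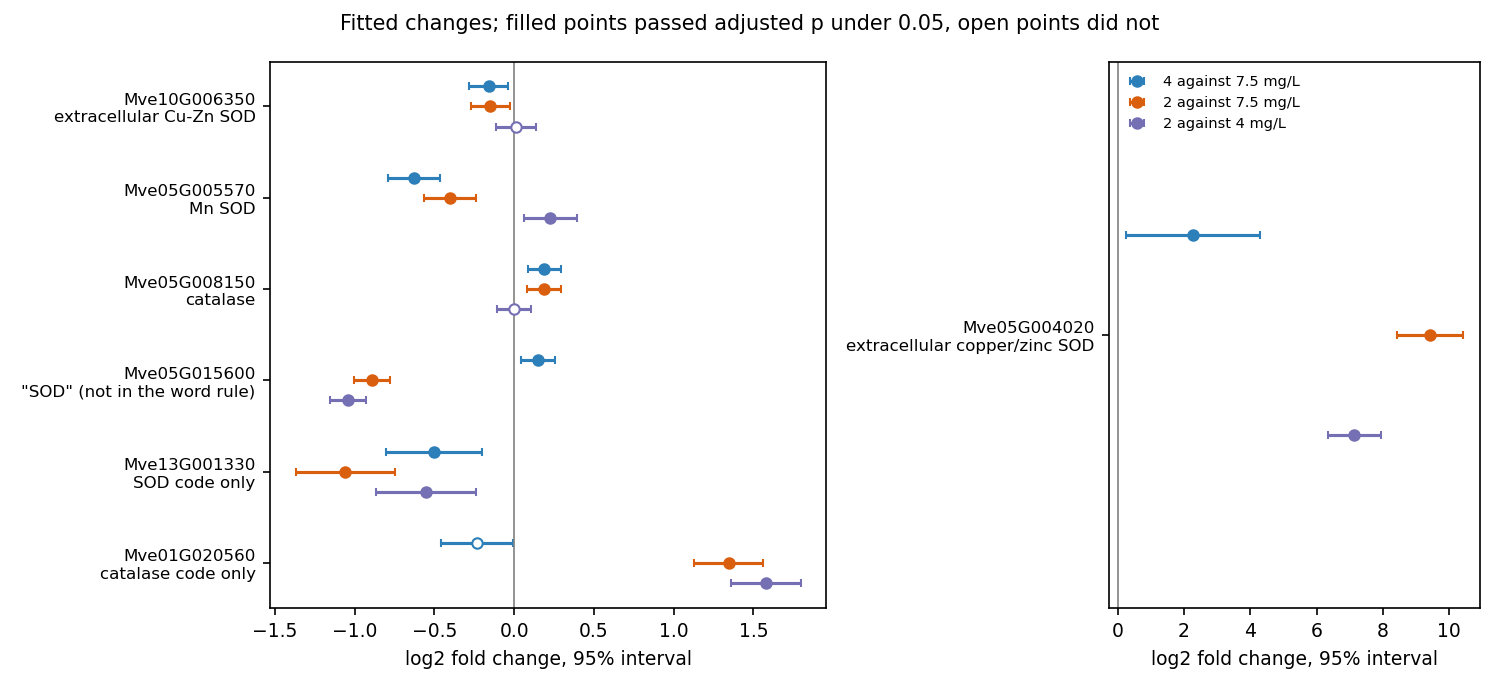
Fitted log2 fold changes (points) with 95% intervals (bars) for 6 genes on the left and Mve05G004020 on its own axis on the right, in 3 comparisons set apart by colour. Filled points passed an adjusted p under 0.05 in edgeR's test and open points did not. For Mve05G004020 at 2 mg/L the bars and filling are no test, because it met the minimum of 1 FPKM only through that group. Its rise there, 9.42 on the log2 scale against 7.5 mg/L, is far beyond the changes of the others.

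Counts of calls over the 4 genes say little beside the whole table, where most genes changed, and Mve05G004020 had to differ at 2 mg/L to be among them. At 4 against 7.5 mg/L 2 rose and 2 fell, all 4 being called, where 69.9% of the 15397 genes tested were called. At 2 against 7.5 mg/L 2 rose and 2 fell, where 63.5% of genes were called. At 2 against 4 mg/L 2 rose and 2 did not pass, where 63.7% of genes were called. On the TMM scale the libraries of the groups did not overlap for 2, 4 and 2 of the 4 genes in the same order of comparisons, against 74.2%, 68.3% and 68% of all genes.

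The chaperone that loads copper into the cytosolic enzyme in other animals, Mve02G000210, lay below the minimum. It had 17, 0 and 9 counts in the control, 7, 0 and 7 counts at 4 mg/L and 0, 8 and 13 counts at 2 mg/L. Each group held 1 library with no count, and the groups overlapped.

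The words missed 4 genes that the deposited table gives the enzyme code of a superoxide dismutase or a catalase, and these were taken up after the table had been seen. The largest is Mve05G015600, described only as SOD, on chromosome 5 from 51352104 to 51358775 on the minus strand. It had 178, 192 and 181 FPKM in the control, 200, 190 and 197 FPKM at 4 mg/L and 88.6, 87.6 and 83.5 FPKM at 2 mg/L. The 2 mg/L libraries were far below all others. It was 1.85-fold lower at 2 than at 7.5 mg/L (log2 -0.89 ± 0.05, adjusted p = 2.57e-10) and 2.06-fold lower than at 4 mg/L (log2 -1.04 ± 0.05, adjusted p = 2.95e-11, edgeR). At 4 against 7.5 mg/L its log2 change was 0.15 (adjusted p = 0.0164), a call that was lost with total counts (adjusted p = 0.188).

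The other 3 coded genes had lower levels than Mve05G015600. Mve13G001330, an uncharacterized gene with the superoxide dismutase code, had 5.47, 5.33 and 4.83 FPKM in the control, 3.58, 3.74 and 3.22 FPKM at 4 mg/L and 2.24, 1.73 and 2.58 FPKM at 2 mg/L, and it fell in all 3 comparisons (log2 -0.50, -1.06 and -0.55 for 4 against 7.5, 2 against 7.5 and 2 against 4 mg/L; adjusted p = 0.00486, 9.24e-06 and 0.00372, edgeR). Its groups stepped down without overlap. Mve03G012330 had 4 counts in 1 library at 2 mg/L and none elsewhere. Mve01G020560, a hypothetical protein with the catalase code, had 6.00, 5.97 and 6.30 FPKM in the control, 4.44, 5.22 and 5.25 FPKM at 4 mg/L and 13.9, 12.6 and 14.1 FPKM at 2 mg/L. It was 2.54-fold higher at 2 than at 7.5 mg/L (log2 1.34 ± 0.10, adjusted p = 6.38e-09, edgeR) and did not pass at 4 against 7.5 mg/L (log2 -0.23, adjusted p = 0.058).

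The make-up of the superoxide dismutase message differed between the groups. Within the 3 named dismutases, Mve05G004020 made up 0.0245% of the summed FPKM in the control, 0.120% at 4 mg/L and 15.3 ± 0.228% at 2 mg/L. The share of Mve10G006350 was 91.5%, 93.6% and 78.5%, and that of the manganese enzyme 8.52%, 6.29% and 6.13%. Mve05G004020 is among these 3 only through its level at 2 mg/L, and its share there lowers those of the others. With the 3 coded genes added, the sum was 466 ± 11.1 FPKM in the control, 431 ± 17.9 at 4 mg/L and 343 ± 13.4 at 2 mg/L. Of this larger sum Mve05G015600 held 39.5%, 45.4% and 25.3%. Mve10G006350 held 54.3%, 50.3% and 58.2% of it, so its share was then highest at 2 mg/L. The manganese enzyme held 5.05%, 3.38% and 4.54%. Catalase with its coded gene summed to 60.7 ± 2.14, 64.6 ± 1.71 and 67.8 ± 2.26 FPKM.

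**Figure D3:**
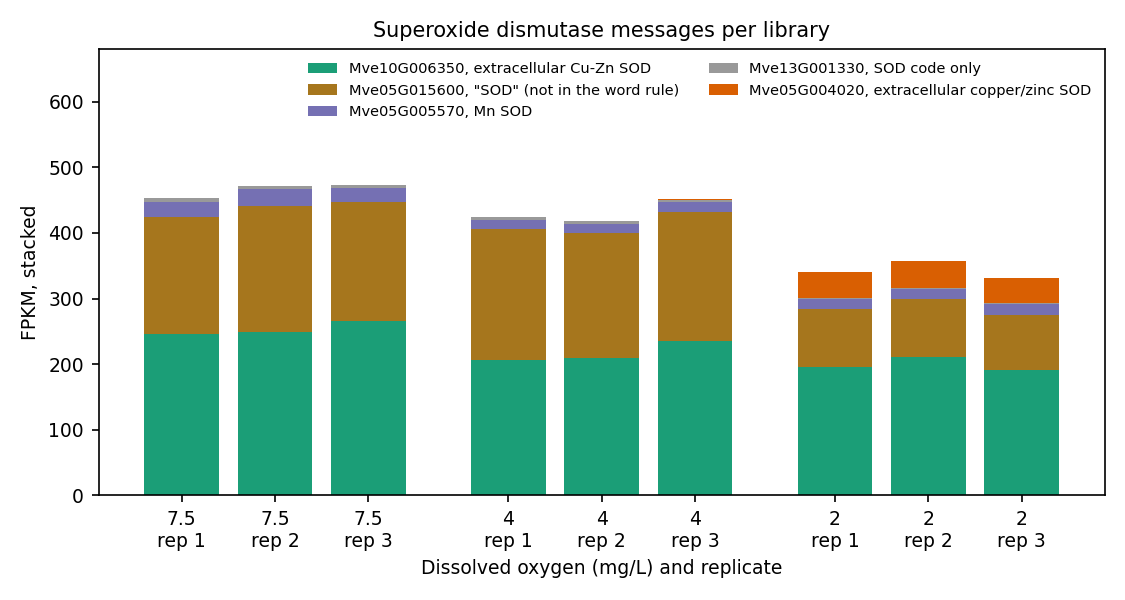
Stacked FPKM (vertical axis from 0) of 5 superoxide dismutase genes in each of the 9 libraries, labelled by dissolved oxygen in mg/L and replicate. The orange block of Mve05G004020 is visible at 2 mg/L, where the brown block of Mve05G015600 is less than at the other oxygen levels.

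The sum of the 3 named dismutases alone was 277 ± 9.20 FPKM in the control, 232 ± 16.9 at 4 mg/L and 254 ± 12.3 at 2 mg/L. At 2 mg/L it holds the 38.9 FPKM of Mve05G004020, the level that put that gene among the 4. No test of the sum is therefore given. The order of the sum was not stable: with TMM-scaled CPM, which is not per length, the log2 difference of 2 and 7.5 mg/L was 0.25, against -0.13 with FPKM.

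Where both genes lie far above the 0.1 FPKM that was added to each, their ratio within a library depends little on how libraries are scaled to each other: for catalase to the manganese dismutase the log2 difference of 2 and 7.5 mg/L was 0.59 with FPKM and with TMM-scaled CPM. The ratio of catalase to the manganese dismutase had a geometric mean of 2.32 in the control, 4.08 at 4 mg/L and 3.48 at 2 mg/L. Its log2 values were 1.27, 1.10 and 1.27 in the control, 2.17, 1.94 and 1.97 at 4 mg/L and then 1.85, 1.79 and 1.76 at 2 mg/L, with no overlap between any groups. The exact permutation test over 1680 assignments of libraries to the 3 groups gave p = 0.00357, the smallest it can give. The adjusted p was 0.0167 over 7 values. Among these 7 are the sum of the dismutases and the ratios to Mve05G004020, which are not given as tests. A test of 2 groups of 3 libraries cannot give a p below 0.1, and each pair of groups reached that value here.

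The ratio of the manganese dismutase to Mve10G006350 went from 0.0932 in the control to 0.0675 at 4 mg/L and 0.0784 at 2 mg/L (exact permutation p = 0.00714, adjusted p = 0.0167). The ratio of catalase to Mve10G006350 went from 0.216 to 0.275 and 0.273 (exact permutation p = 0.0321, adjusted p = 0.0321), and p was 0.05 without the second and 0.1 without the third control library. For Mve05G004020 the added 0.1 FPKM is more than its own control mean, so no ratio or test of it is given for the other groups. At 2 mg/L it stood at 2.50 times the manganese dismutase, and at 0.196 times Mve10G006350, and the ratio of catalase to it was 1.39. It was above the manganese enzyme in all 3 libraries there.

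**Figure D4:**
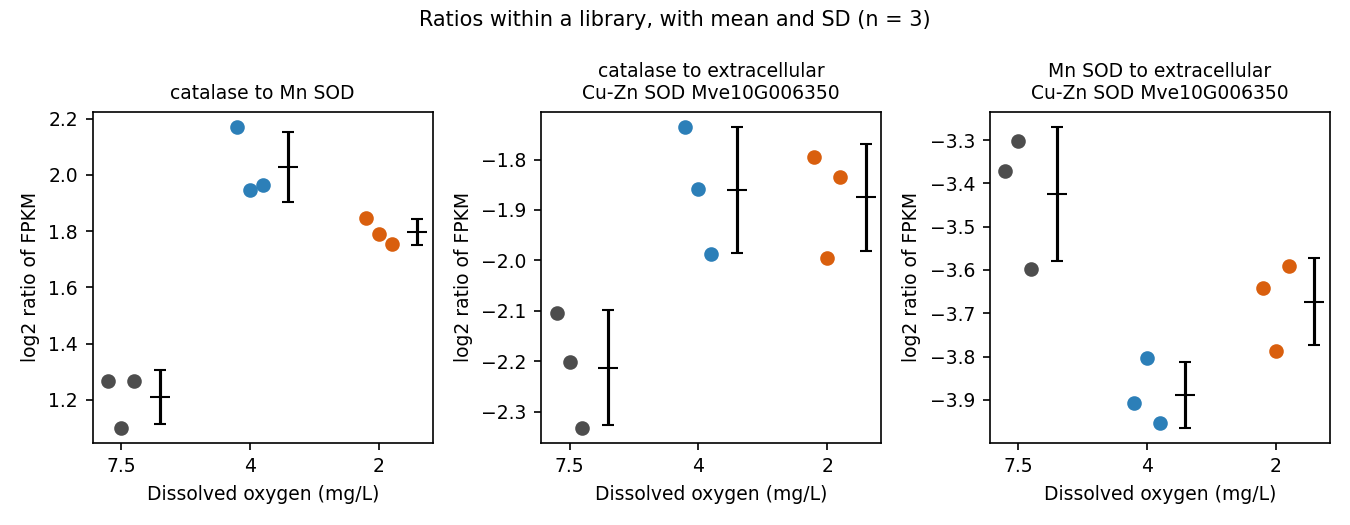
Log2 ratios of FPKM within each library (points) for 3 pairs of genes, by dissolved oxygen in mg/L, with the mean and SD of 3 libraries as a black mark; the vertical axes differ and do not start at 0. For catalase to the manganese dismutase the 3 control points lie between 1.10 and 1.27 and the 6 hypoxic points between 1.76 and 2.17.

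Genes that make or remove the substrates of these enzymes, or supply their metals, were followed by lists of description words. At 4 against 7.5 mg/L 12 of 21 metal supply genes tested rose and 3 fell (median log2 change 0.51). With total counts 11 rose and 5 fell. Of 25 genes for sources of superoxide and peroxide 13 rose and 7 fell (median 0.28). Over all genes 35.4% rose, 34.5% fell and the median was -0.00. Among 30 peroxisome genes 9 rose and 2 fell (median 0.11), and of the 2 falls none or 1 was left without the second or the third control library or without the first or the second 4 mg/L library. Of 18 genes for removal of peroxide 6 rose and 9 fell (median 0.04), and of 14 redox regulators 5 rose and 4 fell (median 0.25). With total counts 4 regulators rose and 4 fell. The share that rose was 35.7% for the regulators and 30% for the peroxisome genes, near or below that of all genes.

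At 2 against 7.5 mg/L the same lists were mixed. Of the metal supply genes 7 rose and 5 fell (median 0.24), and of the sources 9 rose and 6 fell (median -0.03). Of the peroxisome genes 7 rose and 10 fell (median -0.20), and of the peroxide removal genes 5 rose and 7 fell (median -0.29). Of the redox regulators 5 rose and 4 fell (median -0.18), where 31.5% of all genes rose, 32% fell and the median over all was -0.03. At 2 against 4 mg/L more list genes fell than rose except among the regulators (5 rose, 2 fell, median -0.02): metal supply 4 and 11 (median -0.33), sources 6 and 11 (median -0.39), peroxisome 3 and 16 (median -0.38) and peroxide removal 1 and 7 (median -0.12) rose and fell, where 31.6% and 32.1% of all genes did.

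These splits moved with the scaling. With total counts at 2 against 7.5 mg/L, where 3709 genes rose and 6621 fell over the whole table against 4847 and 4924 on the TMM scale, 5 metal supply genes rose and 6 fell, 9 sources rose and 10 fell, 5 peroxisome genes rose and 15 fell, 3 peroxide removal genes rose and 8 fell, and 4 regulators rose and 6 fell. At 2 against 4 mg/L total counts gave 1 rise and 19 falls for the peroxisome, 4 and 14 for the sources and 5 and 6 for the regulators, where 4040 genes rose and 6002 fell over the whole table.

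**Figure D5:**
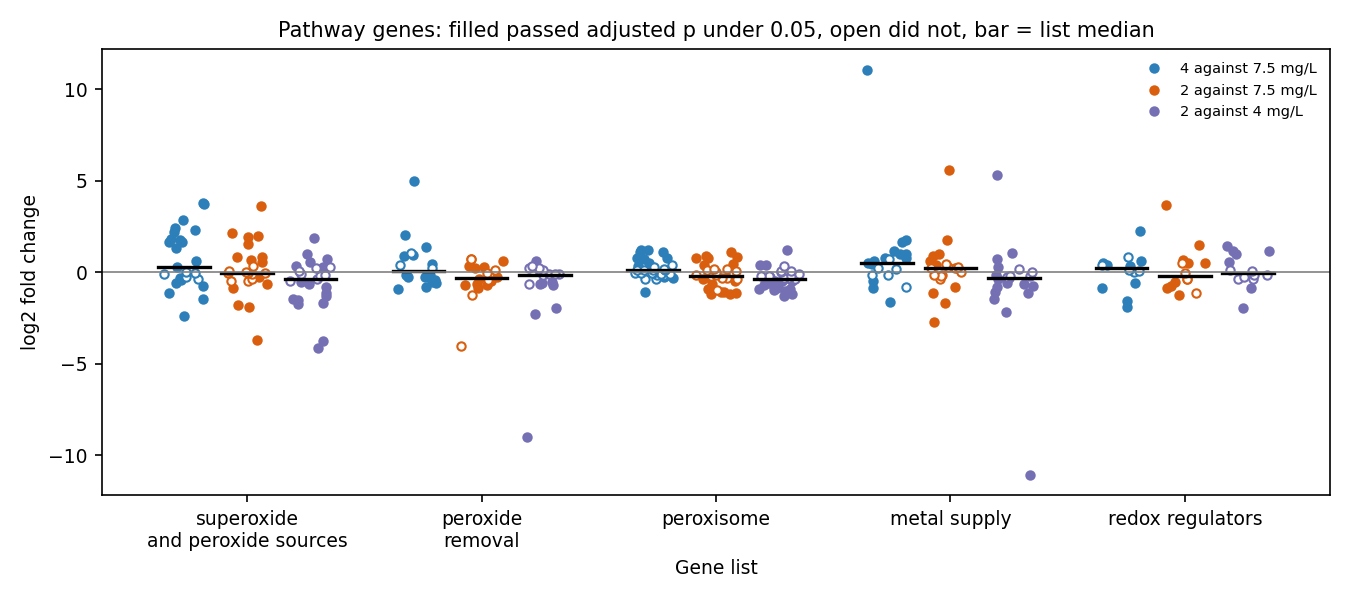
Log2 fold changes of the tested genes on 5 lists (points) in 3 comparisons, with the list median as a black bar. Filled points passed an adjusted p under 0.05 in edgeR's test and open points did not; at 4 against 7.5 mg/L the median of the metal supply list is the highest, at 0.51.

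Copper transport is the supply line of the copper-zinc enzymes, and all 4 of its tested genes rose at 4 mg/L, where 35.4% of all genes tested rose. Their choice for mention was made after their values were seen. For Mve14G005110 it followed from the set rule that takes the largest changes on each list. That high affinity copper uptake protein 1 gene, which brings copper into the cell, had 7.85, 7.48 and 7.35 FPKM in the control, 23.7, 22.1 and 23.7 FPKM at 4 mg/L and 12.8, 12.8 and 11.3 FPKM at 2 mg/L. It was highest at 4 mg/L with no overlap of groups (3.20-fold over the control, log2 1.68 ± 0.08, adjusted p = 5.02e-12, and 1.87-fold at 2 mg/L, adjusted p = 2.65e-08, edgeR). The second uptake gene, Mve03G017560, had 15.2 ± 1.84, 29.0 ± 2.03 and 20.5 ± 3.76 FPKM. The copper-transporting ATPase 1 gene Mve09G008650, which pumps copper into the secretory pathway or out of the cell, had 35.3 ± 1.72, 58.8 ± 1.36 and 35.6 ± 1.28 FPKM. The cytochrome c oxidase copper chaperone Mve05G015540, which serves respiration, had 1.30 ± 0.371, 2.55 ± 0.428 and 3.87 ± 0.368 FPKM. All 4 passed at 2 against 7.5 mg/L on the TMM scale, but with total counts 3 did, the ATPase having a log2 change of 0.01 (adjusted p = 0.866).

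Zinc carriers went both ways. Of the genes described as the zinc importer ZIP10, a ZIP10-like one (Mve07G012350) had a mean of 0.226 FPKM and was not tested. Of the 2 tested, Mve07G000280 had 157, 158 and 153 FPKM in the control, 344, 341 and 326 FPKM at 4 mg/L and 271, 272 and 280 FPKM at 2 mg/L. The other, Mve15G000530, had 45.8, 45.4 and 45.2 FPKM, then 15.4, 14.6 and 12.7 FPKM, then 5.94, 5.99 and 5.89 FPKM. The first was higher in both hypoxic groups (2.26-fold and 2.02-fold) and the second stepped down (3.06-fold lower at 4 mg/L and 6.67-fold lower at 2 mg/L, adjusted p = 8.32e-13 and 3.27e-15, edgeR), with no overlap. The zinc transporter 1-like gene Mve16G008870, of a family that exports zinc, was 4.50-fold lower at 2 than at 4 mg/L (adjusted p = 2.02e-11, edgeR). Ferritin 2 (Mve08G009170), which stores iron, was 1.40-fold lower at 4 than at 7.5 mg/L (adjusted p = 9.15e-10) and 1.24-fold higher at 2 than at 4 mg/L (adjusted p = 2.75e-07, edgeR).

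Among the sources of superoxide and peroxide the most abundant gene named was dual oxidase 2-like, Mve10G007400, which makes hydrogen peroxide at the cell surface. It had 947, 950 and 950 FPKM in the control, 1121, 1096 and 1087 FPKM at 4 mg/L and 1515, 1459 and 1434 FPKM at 2 mg/L. The groups stepped up without overlap, 1.21-fold and then 1.46-fold (log2 0.28 and 0.55, adjusted p = 9.76e-09 and 1.44e-12, edgeR). Neutrophil cytosol factor 2, Mve14G010820, an activator of NADPH oxidase, had 2.01 ± 0.176 FPKM in the control, 25.4 ± 1.34 FPKM at 4 mg/L and 1.74 ± 0.611 FPKM at 2 mg/L. It was high at 4 mg/L alone, at a fitted 13.1-fold over the control (edgeR). Only through its 4 mg/L libraries did it meet the mean of 5 FPKM set for naming, so no test is given. The summed hemocyte and plasma markers were also highest in those libraries. Of 13 such markers tested, however, 4 rose and 7 fell against the control, where 35.4% and 34.5% of all genes did. The part of these markers' cells in the rise was not tested.

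Oxidases that release hydrogen peroxide differed as well. D-aspartate oxidase-like Mve06G010710, a peroxisomal enzyme in mammals, had 3.18, 3.66 and 4.50 FPKM in the control, 25.8, 26.4 and 25.9 FPKM at 4 mg/L and 15.9, 15.6 and 13.3 FPKM at 2 mg/L. These were 7.13-fold and 4.50-fold over the control (adjusted p = 2.28e-12 and 1.14e-10, edgeR). Another tested gene of that description, Mve03G013350, had a higher mean over all libraries (18.9 against 14.9 FPKM) and was not among the largest changes named. Spermine oxidase (Mve13G008870) rose 3.74-fold at 2 against 7.5 mg/L (adjusted p = 3.28e-09, edgeR). Polyamine oxidase-like Mve15G003920 was 3.42-fold lower at 2 than at 7.5 mg/L (adjusted p = 1.37e-06, edgeR). The NADPH oxidase subunit cytochrome b-245 light chain, Mve06G010260, was 1.35-fold lower at 4 mg/L and 1.53-fold lower at 2 mg/L than in the control (adjusted p = 0.00788 and 0.000774, edgeR).

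Enzymes that share the substrate of catalase did not move as one. The glutathione peroxidase-like gene Mve03G018000 had 11.6, 11.7 and 10.1 FPKM in the control, 29.8, 28.0 and 27.3 FPKM at 4 mg/L and 17.1, 14.2 and 16.4 FPKM at 2 mg/L. It was highest at 4 mg/L (2.65-fold over the control, adjusted p = 3.66e-10) and 1.63-fold over the control at 2 mg/L (adjusted p = 3.27e-06, edgeR), without overlap. Among 3 glutathione peroxidases tested, 2 rose at 4 against 7.5 mg/L, where 35.4% of all genes rose. At 2 against 7.5 mg/L 1 rose and 2 did not pass (median log2 change -1.22), where 31.5% rose. All 3 fell at 2 against 4 mg/L, where 32.1% fell. Mve01G017470 and Mve07G003710 were low, with means of 1.47 and 1.33 FPKM. Of 3 genes described as peroxiredoxins, thiol enzymes that break down peroxides, 2 fell at both 4 and 2 mg/L and the other did not pass. Of all genes tested 34.5% and 32% fell. Left out of these 3 is Mve03G004370, described as a thioredoxin peroxidase, which was listed with the thioredoxins and had a mean of 58.6 FPKM. Peroxiredoxin-2 (Mve02G002020) had 10.7 ± 0.527, 8.61 ± 0.467 and 7.39 ± 0.525 FPKM, and the mitochondrial-like peroxiredoxin-5 Mve02G015840 had 47.1 ± 3.21, 30.6 ± 2.23 and 29.9 ± 5.47 FPKM. These 2 were singled out after their values were seen. Of genes described as thioredoxin, small redox proteins that recharge peroxiredoxins, Mve03G017390 was 4.15-fold higher at 4 mg/L than in the control (adjusted p = 4.87e-08), Mve01G004940 was 1.72-fold lower (adjusted p = 1.33e-05) and Mve03G008280 1.38-fold higher (adjusted p = 1.25e-05, edgeR).

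Peroxisomes are where catalase usually resides. Peroxisome biogenesis factor 1-like (Mve15G007790), an ATPase of the import machinery for matrix proteins, had 11.6, 12.4 and 14.0 FPKM in the control, 27.6, 27.6 and 28.6 FPKM at 4 mg/L and 19.5, 20.0 and 18.9 FPKM at 2 mg/L. It was 2.30-fold over the control at 4 mg/L (adjusted p = 2.48e-11, edgeR), with no overlap of groups. Peroxisomal multifunctional enzyme type 2 (Mve10G001130), of fatty acid breakdown, was 2.17-fold higher at 4 mg/L (adjusted p = 5.17e-08) and 1.87-fold higher at 2 mg/L (adjusted p = 1.04e-06, edgeR). Phytanoyl-CoA dioxygenase (Mve08G006130), of branched fatty acid breakdown, was 2.19-fold higher at 2 than at 7.5 mg/L (adjusted p = 7.12e-08), and alkyldihydroxyacetonephosphate synthase (Mve07G010540), of ether lipid synthesis, was 2.24-fold lower (adjusted p = 1.25e-05, edgeR). Peroxisomal 2,4-dienoyl-CoA reductase-like (Mve01G018900), of unsaturated fatty acid breakdown, was 2.21-fold lower at 2 than at 7.5 mg/L (adjusted p = 1.11e-06), and peroxisomal membrane protein 4-like (Mve16G007380) was 1.85-fold lower at 2 than at 4 mg/L (adjusted p = 5.34e-05, edgeR).

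Among the regulators, NF-E2-related factor 2 (Mve07G001210), which in vertebrates drives antioxidant genes, had 8.33, 9.24 and 7.90 FPKM in the control, 13.9, 11.7 and 12.4 FPKM at 4 mg/L and 12.0, 9.14 and 10.3 FPKM at 2 mg/L. It was 1.56-fold over the control at 4 mg/L (adjusted p = 1.7e-05, edgeR), where the libraries did not overlap. At 2 mg/L, where 1 library lay within the control range on the FPKM scale, it was 1.41-fold over the control (adjusted p = 0.000278, edgeR). A probable quinone oxidoreductase, Mve16G008760, had 544, 538 and 518 FPKM in the control, 713, 735 and 739 FPKM at 4 mg/L and 1316, 1340 and 1290 FPKM at 2 mg/L, a step up of 1.43-fold and then 1.98-fold (adjusted p = 1.46e-10 and 3.82e-14, edgeR). Quinone oxidoreductase PIG3-like (Mve05G011060) went the other way, at a fitted 1.83-fold lower at 4 mg/L and 2.33-fold lower at 2 mg/L than in the control (edgeR). Only through its control libraries, at 8.68 FPKM, did it meet the mean of 5 FPKM set for naming, so no test is given. A NAD-dependent protein deacetylase of the sirtuin family, Mve03G001910, was 3.77-fold lower at 4 mg/L than in the control (adjusted p = 7.64e-09, edgeR).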

How the data were processed

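Poly(A) RNA of 9 gill libraries, 3 per oxygen level, had been sequenced. The deposited table holds the authors' raw counts per gene and FPKM (counts scaled by gene length and library size), per the file headers, for 24722 genes. Per the submitters' processing notes the authors used HISAT2 2.2.1, StringTie 2.1.6, cutadapt 1.9, edgeR and DESeq2, in an order and for steps that are not stated. Neither the genome build nor the use of strand in counting was given in the sources used here.

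The 15397 genes averaging 1 FPKM or more were tested with edgeR 4.0.16 (R 4.3.3): quasi-likelihood test on the deposited counts, TMM scaling, all 9 libraries, 1 coefficient per group, Benjamini-Hochberg adjustment over all genes tested. Changed means an adjusted p under 0.05. Folds are fitted ratios and ± on a log2 change is its SE. Ratios used log2(FPKM + 0.1) and exact permutation tests. Over all groups together the test took the between-group sum of squares, and for a pair of groups the mean difference in either direction. DESeq2 1.42.0 and limma 3.58.1 gave alternatives. The script was tested on simulated counts. Low counts were more often even than odd (2649 cells of 2 and 1855 of 1), and the counts of Mve05G004020 in the control and at 4 mg/L were all even, so a count is not 1 independent molecule; halving the counts was added as a setting after the data were seen.

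The genes, lists and markers were chosen with earlier results of these data known; lists are description words, from which matches of another meaning were removed after the file was read. Named were the 4 genes, the 3 described genes nearest to each in profile, and per list and comparison the 2 called genes with the largest rise and the 2 with the largest fall at a mean of 5 FPKM or more; not all are printed.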

Additional observations from a re-analysis of the deposited data

How the results depend on the processing

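Of 1092 values of the main results under alternatives, 1005 kept their direction and call or stayed within 1.5 times of their count. Over 20 settings each, the call was kept in all for the manganese dismutase at 2 against 7.5 mg/L and for it and catalase at 4 against 7.5 mg/L, and Mve10G006350 did not pass in any at 2 against 4 mg/L. The call of Mve05G004020 at 4 against 7.5 mg/L was lost with DESeq2 (log2 2.26), limma on log2(FPKM + 1) (0.24) and on log2(FPKM + 0.1) (0.81), no filter (2.27), only the compared groups (2.25) and the replicate block (2.27), and ran from 0.30 to 3.32 as each library was left out. Ranges over left-out libraries were 0.18 to 0.28 for the manganese dismutase at 2 against 4 mg/L, -0.24 to -0.12 for Mve10G006350 at 4 against 7.5 mg/L and -0.19 to -0.11 at 2 against 7.5 mg/L, where DESeq2 size factors gave -0.14 (adjusted p = 0.0540) and total counts -0.35. With total counts and the 2 limma fits the manganese dismutase lost its call at 2 against 4 mg/L (0.0974, 0.0885 and 0.0939), catalase turned at 2 against 7.5 mg/L (-0.0116, -0.00717 and -0.00728) and was called lower at 2 against 4 mg/L (-0.13, -0.13 and -0.14). The cause was not tested. The log2 difference of the summed dismutases at 2 against 7.5 mg/L, given without a test, turned with TMM-scaled CPM (0.25), which is not per length. With a library left out it ran from -0.16 to -0.10, and that of the ratio of catalase to Mve10G006350 from 0.28 to 0.40.

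With a minimum of 5 FPKM, which leaves fewer genes to test, 6248 genes were called at 4 against 7.5 mg/L (3142 higher, 3106 lower), 5975 at 2 against 7.5 mg/L (2970 and 3005) and 5923 at 2 against 4 mg/L (2991 and 2932). The same minimum gave, at 4 against 7.5 mg/L, 5 metal supply rises, 5 peroxisome rises and 1 fall, 3 regulator rises and 3 source falls; at 2 against 7.5 mg/L, 3 metal supply, 5 peroxisome and 3 source falls; and at 2 against 4 mg/L, 1 metal supply rise and 6 falls, 8 peroxisome falls, 3 regulator rises and 1 fall, and 3 source rises and 7 falls. At 4 against 7.5 mg/L, metal supply falls became 5 with total counts or upper-quartile scaling, and peroxisome falls 1 with no filter or the replicate block and 0 to 2 with a library left out. At 2 against 7.5 mg/L, total counts gave 3 peroxide removal rises and 10 source falls, and both limma fits gave 3 peroxide removal rises, 16 peroxisome falls and 7 regulator falls. At 2 against 4 mg/L, total counts and both limma fits gave 1 peroxisome rise and 6, 6 and 5 regulator falls, no filter gave 1 regulator fall, and peroxide removal rises were 1 to 2 with a library left out. For genes named singly, 40 of 2157 values lost their call and 20 gained one.

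Replicate numbers did not pair the libraries: deviations from the group means correlated at -0.0287 to 0.00540 between same-numbered libraries. The replicate block gave 10519, 9508 and 9531 called genes, against 10760, 9771 and 9813, and changed no call of the 4 genes other than that of Mve05G004020 at 4 against 7.5 mg/L.

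Depth limits Mve05G004020 at 7.5 and 4 mg/L, where 12 and 60 counts were summed over 3 libraries, and Mve02G000210 throughout.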

Other observations

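Genes beside these enzymes on the chromosome had changes of their own. Mve05G008140, a hypothetical protein that starts 53 bp from catalase on the opposite strand, had 2.78 ± 0.168 FPKM in the control, 1.27 ± 0.148 at 4 mg/L and 1.46 ± 0.0976 at 2 mg/L. It was lower than in the control by log2 changes of -1.07 ± 0.17 at 4 mg/L and -0.73 ± 0.17 at 2 mg/L (adjusted p = 2.94e-05 and 0.00125, edgeR), where catalase had log2 changes of 0.19 in both on the TMM scale. A putative alpha-tubulin gene, Mve10G006360, 1732 bp beyond Mve10G006350 on the same strand, had 33.7 ± 0.957, 29.1 ± 2.13 and 87.3 ± 3.40 FPKM, 2.97-fold higher at 2 than at 7.5 mg/L (adjusted p = 2.16e-12, edgeR).

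Mve05G015610, a hypothetical protein 334 bp from Mve05G015600 on the opposite strand, had 8.07 ± 0.438, 6.36 ± 0.796 and 2.74 ± 0.141 FPKM, and like Mve05G015600 it was lower at 2 than at 7.5 mg/L (2.55-fold, adjusted p = 1.04e-05, edgeR). These neighbours were looked at after the values of the enzymes were known, and no source used here says whether reads of opposite strands were counted apart.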
